A study of Mus musculus with 19 samples.

Results

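Hearts of Rev-erb alpha knockout mice were compared with hearts of wild-type mice, both taken at zeitgeber time 12 (ZT12, the hour of lights off) and both frozen after a short ischemia and reperfusion. The comparison holds 12 of the 19 hearts in the series, 5 of knockout and 7 of wild-type mice, chosen by genotype and time in the sample titles. The other 7 are wild-type hearts at ZT0, the hour of lights on, and are given here as a reference level. Each heart was perfused outside the body by the Langendorff method, kept 20 min without flow and reperfused for 20 min, so no group is free of ischemia, and transcripts were read on 1 Affymetrix whole-transcript array per heart. Wild-type mice were of the strain C57Bl6J, per the labels. For the knockout no strain, allele, age or sex is stated, and the labels do not say whether the deletion is in all tissues. Values are log2 intensities after RMA, an array method that corrects background, equalises the distributions of arrays and summarises the probes of a transcript.

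Rev-erb alpha, encoded by Nr1d1, is a nuclear receptor that binds short DNA elements shared with the ROR receptors and recruits a corepressor complex there. In the circadian clock it represses Arntl (BMAL1), Clock and Npas2, which encode activators, while those activators drive Nr1d1 and the Per, Cry and Dbp genes through E-boxes. Its transcript and protein are most abundant in the second part of the light phase in many mouse tissues, and in heart and muscle it has also been tied to metabolic and inflammatory genes.

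The targeted gene itself was read first. Nr1d1 stood at 6.35, 6.40, 6.30, 6.36 and 6.51 in knockout hearts 1 to 5, against 6.46 to 7.28 (median 6.64) in the wild type. The groups overlapped by 1 knockout heart, and the difference did not pass (log2 change -0.35 with SE 0.15, adjusted p = 0.374, interval -0.65 to -0.050). Which part of the gene the probe set reads and which part the allele removes are given in no source used here, so this value does not check the labels. All 5 knockout hearts lay far above all 7 wild-type hearts for Arntl, as described below.

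The genes on either side of Nr1d1 were also read. Thra, the thyroid hormone receptor alpha gene that overlaps Nr1d1 on the opposite strand, was at 4.91, 5.09, 4.86, 4.74 and 4.55 in the knockout hearts and 5.01 to 5.35 (median 5.20) in the wild type (log2 change -0.37 with SE 0.085, adjusted p = 0.0401). Med1, which encodes a Mediator subunit used by nuclear receptors, was at 6.97, 7.12, 7.25, 7.07 and 7.28 against 6.55 to 6.95 (median 6.76) (log2 change 0.39 with SE 0.091, adjusted p = 0.0465). They were the 2 genes called among the 50 tested genes that lie within 25 positions of Nr1d1 in the reference gene order (4.0%, against 0.730% of all genes tested), and also the 2 called among 200 within 100 positions (1.0%). The 50 neighbours had a median log2 difference of 0.029. The call for Thra was lost on leaving out any single ZT12 heart except wild-type heart 5 and knockout heart 2 (adjusted p of 0.0506 to 0.120), or with only the ZT12 arrays, after centring, with the atrial covariate or with the Bmp10 covariate (0.0541 to 0.122). That for Med1 was lost on leaving out any single ZT12 heart except wild-type heart 3 and knockout heart 1 (adjusted p of 0.0683 to 0.132), or with only the ZT12 arrays, after a second quantile normalization, after centring, with the atrial covariate or with the Bmp10 covariate (0.0555 to 0.129). Whether the probes of Nr1d1 and Thra lie in the part where the genes overlap was not checked here.

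**Figure D1:**
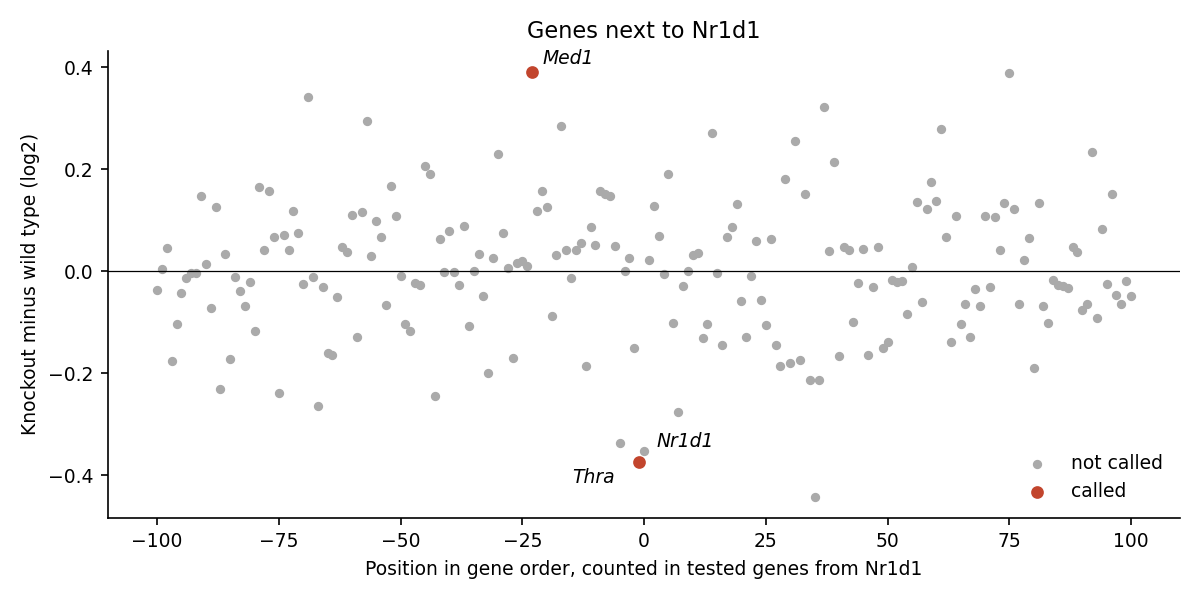
Log2 difference between knockout and wild type at ZT12 (y axis) for Nr1d1 and the tested genes up to 100 positions away in the reference gene order (x axis, in genes). Thra and Med1 are the 2 called genes, and Nr1d1 at -0.35 is not called.

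The hearts differed in their atrial transcripts, and unevenly between the genotypes. Means of Myl7, Myl4 and Sln, which encode atrial myosin light chains and sarcolipin, were 8.77, 4.34, 8.69, 5.04 and 4.05 in knockout hearts 1 to 5, and 4.75 in wild-type heart 5. The other 6 wild-type hearts lay between 6.95 and 8.59. Thus 3 of 5 knockout hearts and 1 of 7 wild-type hearts were low in these transcripts. The mean of all 13 measured atrial markers ran from 5.38 to 8.05 in the wild type and from 5.16 to 7.96 in the knockout, and 0 of the 13 passed the limma test (2 at an unadjusted p under 0.05). Bmp10, a growth factor gene of the right atrium, was at 9.01, 3.20, 4.15, 2.66 and 3.47 in the knockout hearts, and 4 hearts of each genotype lay below 6. No atrial marker was at 0. Sln (-1.998), Hamp (-2.03), Mybphl (-1.56), Dkk3 (-0.94), Nppa (-0.57), Stard10 (-0.36) and Bmp2 (-0.29) had the other negative log2 differences beside Myl7 (-1.61), Myl4 (-0.42), Bmp10 (-1.79) and Kcnj3 (-0.085), while Tbx5 (0.26) and Gpr22 (0.073) were above 0. The genes below were therefore also fitted with the atrial mean or Bmp10 as a covariate, and without the 4 low hearts.

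**Figure D2:**
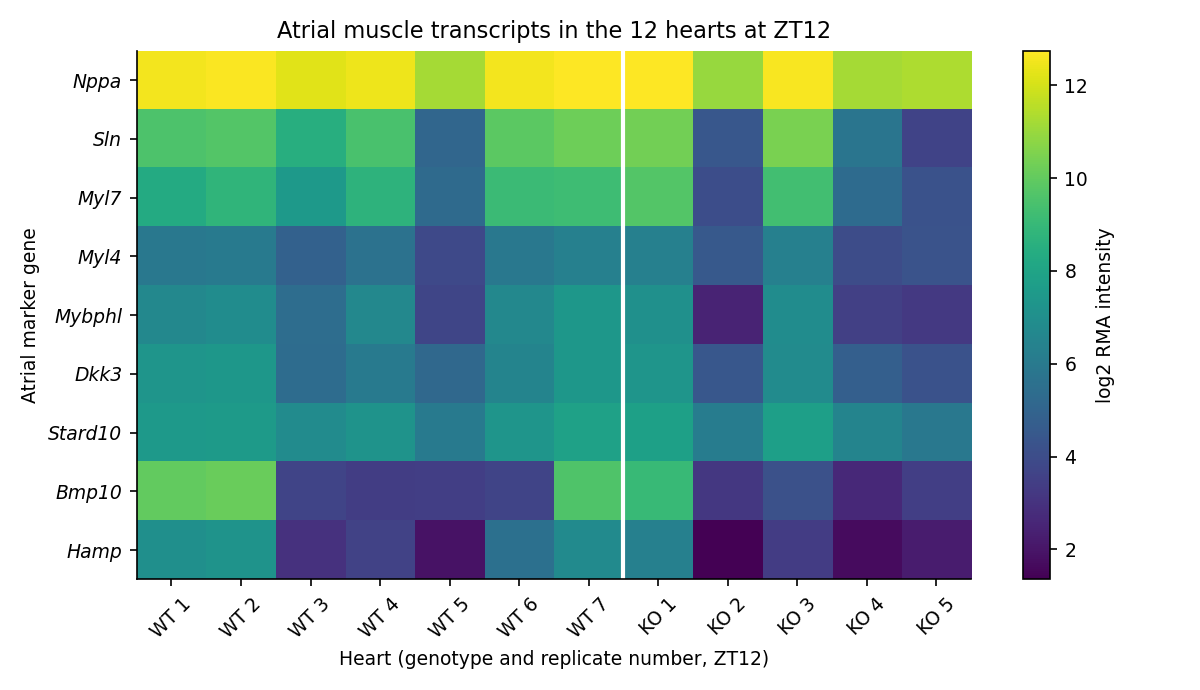
Log2 intensity (colour) of 9 atrial marker genes (rows) in each of the 12 hearts at ZT12 (columns, wild type left of the white line). Knockout hearts 2, 4 and 5 and wild-type heart 5 are low in Sln, Myl7 and Myl4, and 8 hearts are low in Bmp10.

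Cardiomyocyte transcripts defined all samples, as the tissue label says: the mean of 14 markers was 11.08 to 11.14 in the wild type and 11.12 to 11.19 in the knockout, with 0 of 14 called (3 at an unadjusted p under 0.05). Correlations between arrays over all probe sets were 0.972 to 0.985 in the series. In bulk tissue, as for the atrial markers, fewer cells of a type and less RNA per cell cannot be told apart.

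Of 22180 genes tested, 162 differed between the genotypes at an adjusted p under 0.05 (0.730%), 98 of them higher in the knockout (0.442%) and 64 lower (0.289%). The changes were mostly small. Called genes differed by a median of 1.41-fold, and 9 differed more than 2-fold, 6 upwards and 3 downwards. In 111 of the 162 the knockout hearts did not overlap the wild-type hearts, a separation that 310 of all genes showed (1.40%). They lay above in 74 called genes and 215 of all genes (0.969%), and below in 37 called genes and 95 of all genes (0.428%). At an unadjusted p under 0.05 there were 2342 of the 22180 genes. The unadjusted counts given for single lists are to be read beside that share. Called genes kept their direction in each of 24 other fits in which they were tested, but the number passing varied. Those fits reuse the arrays by which the genes were called, so a kept direction was likely beforehand and is no separate support. Without the 4 hearts low in atrial markers, which leaves 2 knockout and 6 wild-type hearts, 19 genes passed and 14 of the 162 were among them. These were Arntl, Clock, Kcne1, Slc41a3, Ddit4, Cdkn1a, Fabp7, Agt, Ankrd23, Crispld2 and Lcn2, which rose, and Mylk4, Abca6 and Alox5, which fell. Every other call named here was lost in that fit, and this is not repeated at each gene. The fits given beside single genes also leave out the one with the replicate number as a block, in which 81 of the 162 passed. The same genes other than Lcn2, 13 in all, passed in each of the 24 fits.

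**Figure D3:**
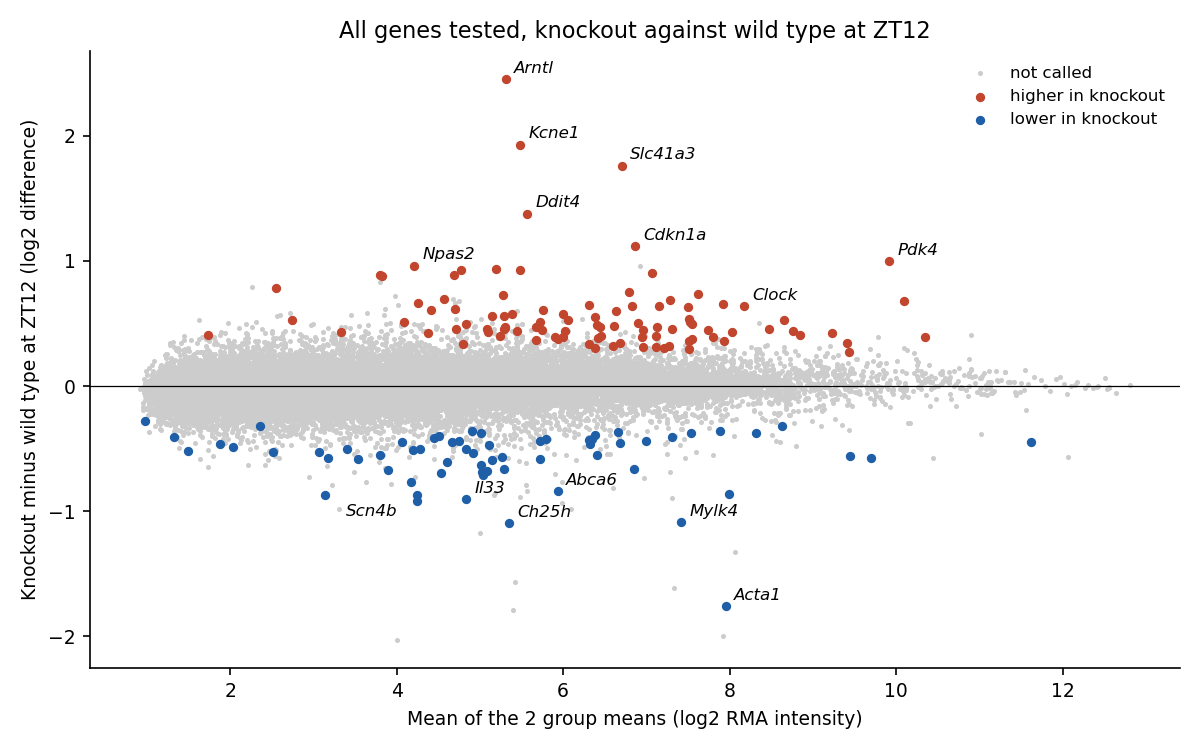
Log2 difference between knockout and wild type at ZT12 (y axis) against the mean of both group means (x axis, log2 intensity) for the 22180 genes tested, with the 98 higher genes in red and the 64 lower genes in blue. Arntl, Kcne1 and Slc41a3 stand highest and Acta1 lowest among called genes, and the uncalled grey points below -1.5 are atrial markers.

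Clock activators were higher in the knockout. Arntl was at 6.33, 6.77, 6.64, 6.66 and 6.28 in the knockout hearts and at 3.72 to 4.31 (median 4.09) in the wild type, so that every knockout heart exceeded every wild-type heart. It was 5.48-fold higher (log2 change 2.45 with SE 0.10, adjusted p = 1.24e-12), from 4.08 ± 0.21 to 6.54 ± 0.22 (SD, n = 7 and 5). Clock, the partner of BMAL1, rose 1.56-fold, at 8.42 to 8.64 in the knockout hearts against 7.78 to 7.99, again with no overlap (log2 change 0.64 with SE 0.062, adjusted p = 4.77e-06). Npas2, a relative that can replace Clock, stood at 4.68, 4.47, 4.68, 4.54 and 5.09 against 3.15 to 4.15 (median 3.76) and rose 1.95-fold (log2 change 0.96 with SE 0.15, adjusted p = 0.00170). Of the 6 measured genes listed as clock genes repressed by REV-ERB, 3 rose and 0 fell, with 3 not passing (50% called, beside 0.730% of all genes). Their median log2 difference was 0.53 beside -0.0030 for all genes. Nfil3, a D-box repressor, was at 5.75 to 6.25 in the knockout and 5.23 to 5.82 in the wild type, and Cry1, a repressor of CLOCK and BMAL1, at 5.42 to 5.98 and 5.08 to 5.65. Neither passed (0.42, adjusted p = 0.119, and 0.25, adjusted p = 0.442), and E2f8, a cell cycle repressor, was at -0.31 (adjusted p = 0.379).

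Levels at ZT0 in the wild type were 7.27 ± 0.060 for Arntl, 8.59 ± 0.078 for Clock, 5.18 ± 0.24 for Npas2 and 6.30 ± 0.23 for Nfil3 (SD, n = 7). A comparison with those hearts uses the same knockout hearts as above. The knockout at ZT12 was lower in Arntl (log2 difference -0.73, adjusted p = 0.000191). For Clock (-0.094, adjusted p = 0.591), Npas2 (-0.49, adjusted p = 0.113) and Nfil3 (-0.30, adjusted p = 0.262) the difference from ZT0 did not pass.

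Clock genes listed as driven by E-boxes and D-boxes had no call. Of 13 measured genes, Nr1d1 among them, 0 rose and 0 fell in the limma test (0% called, beside 0.730% of all genes). At that share a list of 13 would seldom hold a call, so the 0 says little. Differences were positive in 8 and negative in 5, and 3 had an unadjusted p under 0.05 (2342 of all 22180 genes). The lowest log2 difference, -0.35, was that of Nr1d1 itself, which was also among those 3. The other members ran from -0.13 to 0.25. Dbp, a clock output factor, was at 8.32, 8.37, 8.16, 8.03 and 8.56 in the knockout hearts against 7.91 to 8.22 (median 8.12), overlapping groups with a difference of 0.20 (interval -0.046 to 0.45). The period genes Per3 and Per1 were at -0.025 (interval -0.25 to 0.20) and 0.12 (interval -0.13 to 0.38). Nr1d2, which encodes Rev-erb beta, the relative of the deleted receptor, was at 8.05, 8.11, 7.80, 7.92 and 8.18 against 7.72 to 8.04 (median 7.94), a difference of 0.11 (interval -0.085 to 0.31). Among the further members, the repressor genes Ciart and Cry2 were at 0.25 and 0.20, Tef and Hlf, relatives of Dbp, at 0.21 and 0.18, and the E-box repressors Bhlhe41 and Bhlhe40 at 0.23 and -0.13. The kinase gene Wee1 was at -0.13 and the deubiquitinase gene Usp2 at -0.079. A dimmer probe set of Tef pointed the other way (-0.20). For comparison, ZT0 hearts averaged 5.56 for Dbp and 4.17 for Per3, below every ZT12 heart of either genotype.

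**Figure D4:**
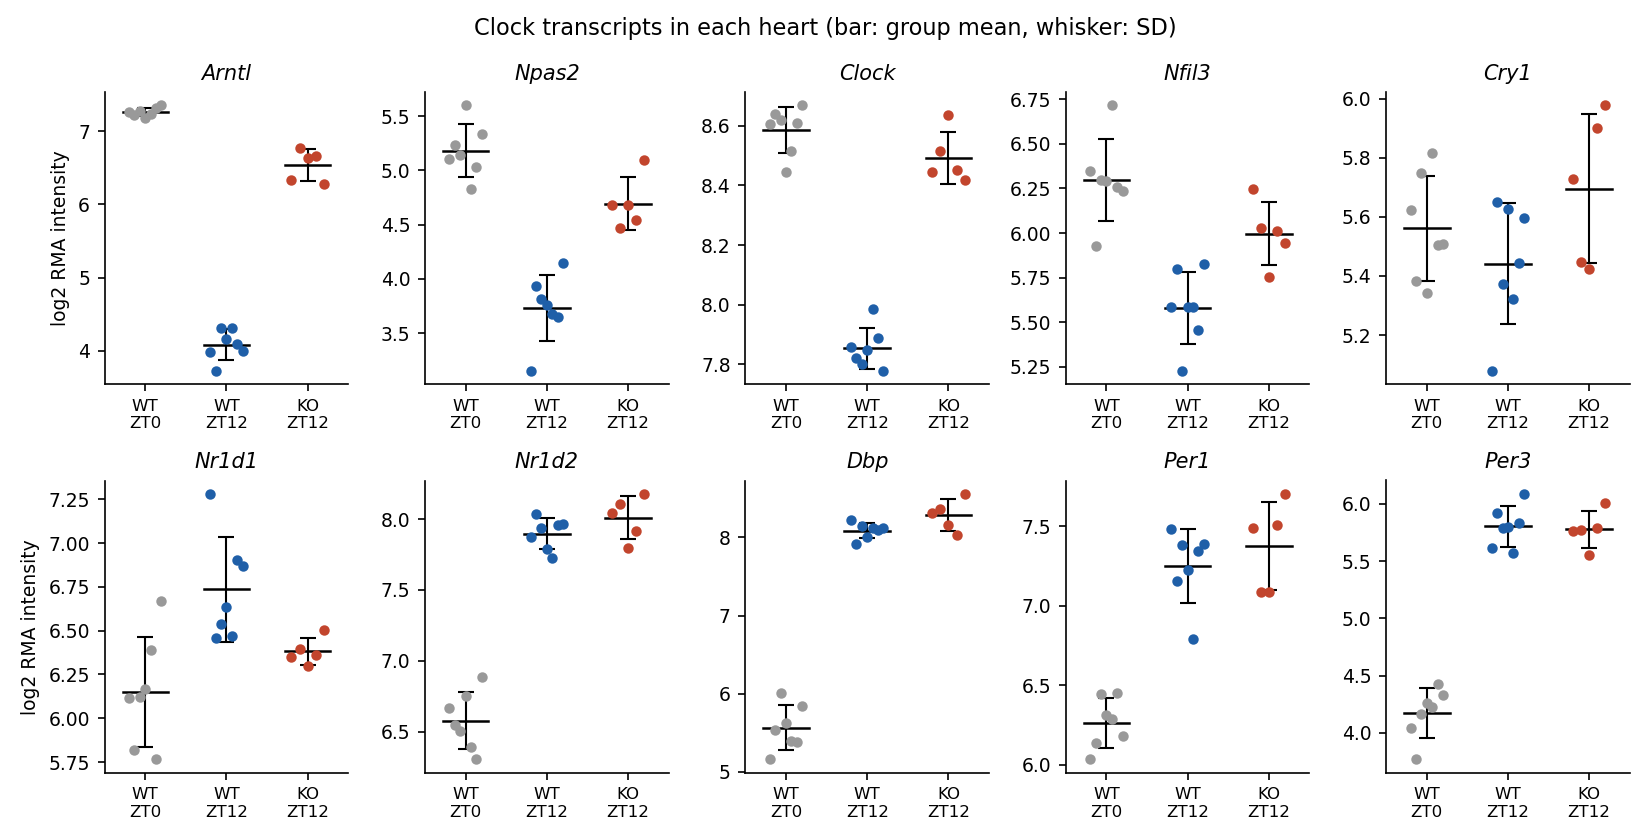
Log2 intensity (y axis) of 10 clock transcripts in each heart, by group (WT at ZT0, WT at ZT12, knockout at ZT12), with the group mean (bar) and SD (whisker). Arntl, Npas2 and Clock are separated between the ZT12 genotypes, while Dbp, Per1, Per3 and Nr1d2 overlap.

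Promoters were searched for the receptor's binding letters because several clock activators rose. The motif was TAGGTCA on either strand, the core of the ROR and REV-ERB element, in RefSeq promoter windows of GRCm38.p6 that run from 250 bases before to 50 after a transcript start. It includes the shorter site AGGTCA. Of 32851 such windows 2.61% held TAGGTCA, as did at least 1 window of 462 of 16990 tested genes with an entry (2.72%). Among genes higher in the knockout it was found in 6 of 76 with an entry (7.89%) and among lower genes in 0 of 46. The 6 were Arntl, Fabp7, Leo1, Slc45a3, Adamtsl5 and Rufy1, and Nfil3, which did not pass, also had a match. The windows found for Npas2, Clock, Cry1 and E2f8 had none, which says only that these letters are not in those bases. The shorter site AGGTCA, counted with or without the T before it, was in 16.3% of windows and 16.4% of tested genes. It was in 17 of 76 higher genes (22.4%), the 6 with TAGGTCA included, and in 5 of 46 lower genes (10.9%). The E-box CACGTG was in 9.19% of tested genes, in 8 higher genes (10.5%) and in 4 lower genes (8.70%). The stretches with the match are shown 5′ to 3′ on the strand of the gene, with the match in capitals (TGACCTA where it lies on the other strand). For Arntl the 60 bases upstream of the start are added, since their end, gaaagtaggtt, shares gaaagtaggt with the matched site and the bases before it.
Arntl, chr7:113207530-113207559, plus strand: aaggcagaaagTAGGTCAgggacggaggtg
Arntl upstream, chr7:113207451-113207510, plus strand: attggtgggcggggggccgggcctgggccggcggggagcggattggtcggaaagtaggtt
Fabp7, chr10:57784735-57784785, plus strand: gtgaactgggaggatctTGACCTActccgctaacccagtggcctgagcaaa
Leo1, chr9:75441444-75441494, plus strand: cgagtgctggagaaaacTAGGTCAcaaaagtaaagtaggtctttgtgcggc
Slc45a3, chr1:131970476-131970526, plus strand: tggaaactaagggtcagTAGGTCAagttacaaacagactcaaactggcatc
Adamtsl5, chr10:80348553-80348603, minus strand: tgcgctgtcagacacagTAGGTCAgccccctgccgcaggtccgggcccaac
Rufy1, chr11:50431099-50431128, minus strand: ggcgggtcacgTGACCTAacaacatggccg
Nfil3, chr13:52981040-52981068, minus strand: agcgcggcgctcggaacTGACCTActaac

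Among these genes Fabp7, a fatty acid binding protein gene known as a Rev-erb target in brain, was at 4.81, 3.79, 4.40, 4.13 and 4.20 in the knockout hearts against 3.09 to 3.78 (median 3.30) (log2 change 0.88 with SE 0.16, adjusted p = 0.00822). Leo1, which encodes a subunit of the PAF1 elongation complex (log2 change 0.47, adjusted p = 0.0243), the membrane transporter gene Slc45a3 (log2 change 0.51, adjusted p = 0.0450), the secreted ADAMTS-like protein gene Adamtsl5 (log2 change 0.39, adjusted p = 0.0302) and the endosome gene Rufy1 (log2 change 0.31, adjusted p = 0.0457) rose less. These 4 are named because of the match. The call for Leo1 was lost without wild-type heart 4 or knockout heart 2, 3 or 4 (adjusted p of 0.0505 to 0.0664), or with only the ZT12 arrays or with the atrial covariate (0.0504 to 0.0583). For Slc45a3 it was lost on leaving out any single ZT12 heart except wild-type hearts 6 and 7 and knockout heart 5 (adjusted p of 0.0625 to 0.128), or with only the ZT12 arrays (0.175). For Adamtsl5 it was lost on leaving out any single ZT12 heart except wild-type hearts 1, 3, 5 and 6 and knockout heart 3 (adjusted p of 0.0538 to 0.0832), or with the atrial covariate or with the Bmp10 covariate (0.0622 to 0.0844), and for Rufy1 on leaving out any single ZT12 heart except wild-type heart 6 (adjusted p of 0.0582 to 0.132), or with only the ZT12 arrays, after centring, with the atrial covariate, with the adipocyte covariate or with the Bmp10 covariate (0.0575 to 0.115).

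Among called genes outside the clock, the channel subunit gene Kcne1 and the transporter gene Slc41a3 differed most, with Acta1 (3.38-fold lower) close behind. Kcne1, which encodes the beta subunit of the slow delayed rectifier potassium channel, was at 6.20, 6.82, 6.31, 6.39 and 6.52 in the knockout hearts and 4.09 to 4.77 (median 4.61) in the wild type. No hearts overlapped, and it rose 3.80-fold (log2 change 1.93 with SE 0.12, adjusted p = 3.29e-09). Wild-type hearts at ZT0 averaged 4.37 ± 0.19, and the knockout exceeded those too (log2 difference 2.08, adjusted p = 7.37e-10). Its pore-forming partner Kcnq1 was at -0.023 (adjusted p = 0.962). Slc41a3, a magnesium transporter gene, stood at 7.37, 7.60, 7.50, 7.65 and 7.82 against 5.54 to 6.13 (median 5.80) and rose 3.39-fold (log2 change 1.76 with SE 0.10, adjusted p = 9.55e-10). Its ZT0 mean was 7.18 ± 0.18. Scn4b, which encodes the beta-4 subunit of the sodium channel, fell 1.83-fold, at 3.63, 3.67, 3.75, 4.25 and 3.72 in the knockout hearts against 4.22 to 5.24 (median 4.76) (log2 change -0.87 with SE 0.18, adjusted p = 0.0247), with knockout heart 4 inside the wild-type range. That call was lost without knockout heart 1, 2, 3 or 5 (adjusted p of 0.0531 to 0.0655), or with only the ZT12 arrays (0.0732). Of 30 measured genes of cardiac channels, gap junctions and calcium handling, 1 rose and 1 fell, with 28 not passing (6.67% called, beside 0.730% of all genes). Their median was -0.0087. Gja1, the main ventricular gap junction gene, was at 0.29 (adjusted p = 0.0741).

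Cdkn1a, which encodes the cell cycle inhibitor p21, was at 7.70, 6.98, 7.46, 7.54 and 7.46 in the knockout hearts against 5.85 to 6.70 (median 6.29), a 2.17-fold rise with no overlap (log2 change 1.12 with SE 0.15, adjusted p = 0.000246). Ddit4, the gene of an inhibitor of mTORC1 signalling, was at 6.07, 6.20, 5.96, 6.78 and 6.26 against 4.32 to 5.17 (median 4.94) and rose 2.60-fold (log2 change 1.38 with SE 0.14, adjusted p = 8.27e-06). ZT0 hearts averaged 7.09 ± 0.22 for Cdkn1a and 5.56 ± 0.16 for Ddit4, and the knockout lay above ZT0 in Ddit4 (log2 difference 0.70, adjusted p = 0.00993) but not past the test in Cdkn1a (0.33, adjusted p = 0.338). Pdk4, whose kinase shuts off pyruvate dehydrogenase, was at 10.43, 10.11, 9.82, 10.47 and 11.28 against 8.97 to 10.13 (median 9.44) (log2 change 1.0003 with SE 0.21, adjusted p = 0.0223), with overlap between the groups. The call for Pdk4 was lost without knockout heart 4 or 5 (adjusted p of 0.0544 to 0.0585), or with only the ZT12 arrays (0.0974). Its difference was 0.63 without the hearts low in atrial markers and 1.01 with the atrial covariate (adjusted p = 0.0440).

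The lists that hold these genes were also counted. Of 20 p53 targets, 1 rose and 0 fell, with 19 not passing (5.0% called, beside 0.730% of all genes). Cdkn1a was the riser, and the median was -0.085. Among 23 targets of hypoxia-inducible factors, 1 rose and 0 fell, with 22 not passing (4.35% called, beside the same 0.730%). Ddit4 was the riser, and Vegfa was at 0.036. Of 29 genes reported elsewhere as Rev-erb alpha targets outside the clock, 3 rose and 0 fell, with 26 not passing (10.3% called, beside 0.730% of all genes). The risers were Cdkn1a, Pdk4 and Fabp7, and the median was 0.0013. The cytokine genes of that list, Il6 (-1.18, adjusted p = 0.259) and Ccl2 (-0.79, adjusted p = 0.176), and the coactivator gene Ppargc1a (0.066) did not pass. The glucocorticoid-responsive list gave the highest count of called genes among the lists, and of 21 genes 5 rose and 0 fell, with 16 not passing (23.8%, beside 0.730% of all genes). They were Ddit4, Cdkn1a, Pdk4, Lcn2 and Zbtb16. Zbtb16, a zinc-finger repressor gene outside the rule for naming, rose 1.37-fold (log2 change 0.46 with SE 0.10, adjusted p = 0.0361), a call that was lost on leaving out any single ZT12 heart except wild-type hearts 3 and 7 and knockout heart 2 (adjusted p of 0.0661 to 0.115), or with only the ZT12 arrays, with the atrial covariate or with the Bmp10 covariate (0.0556 to 0.0953). The commonly used glucocorticoid markers Fkbp5 (0.30, adjusted p = 0.473), Tsc22d3 (0.27, adjusted p = 0.223) and Per1 did not pass.

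**Figure D5:**
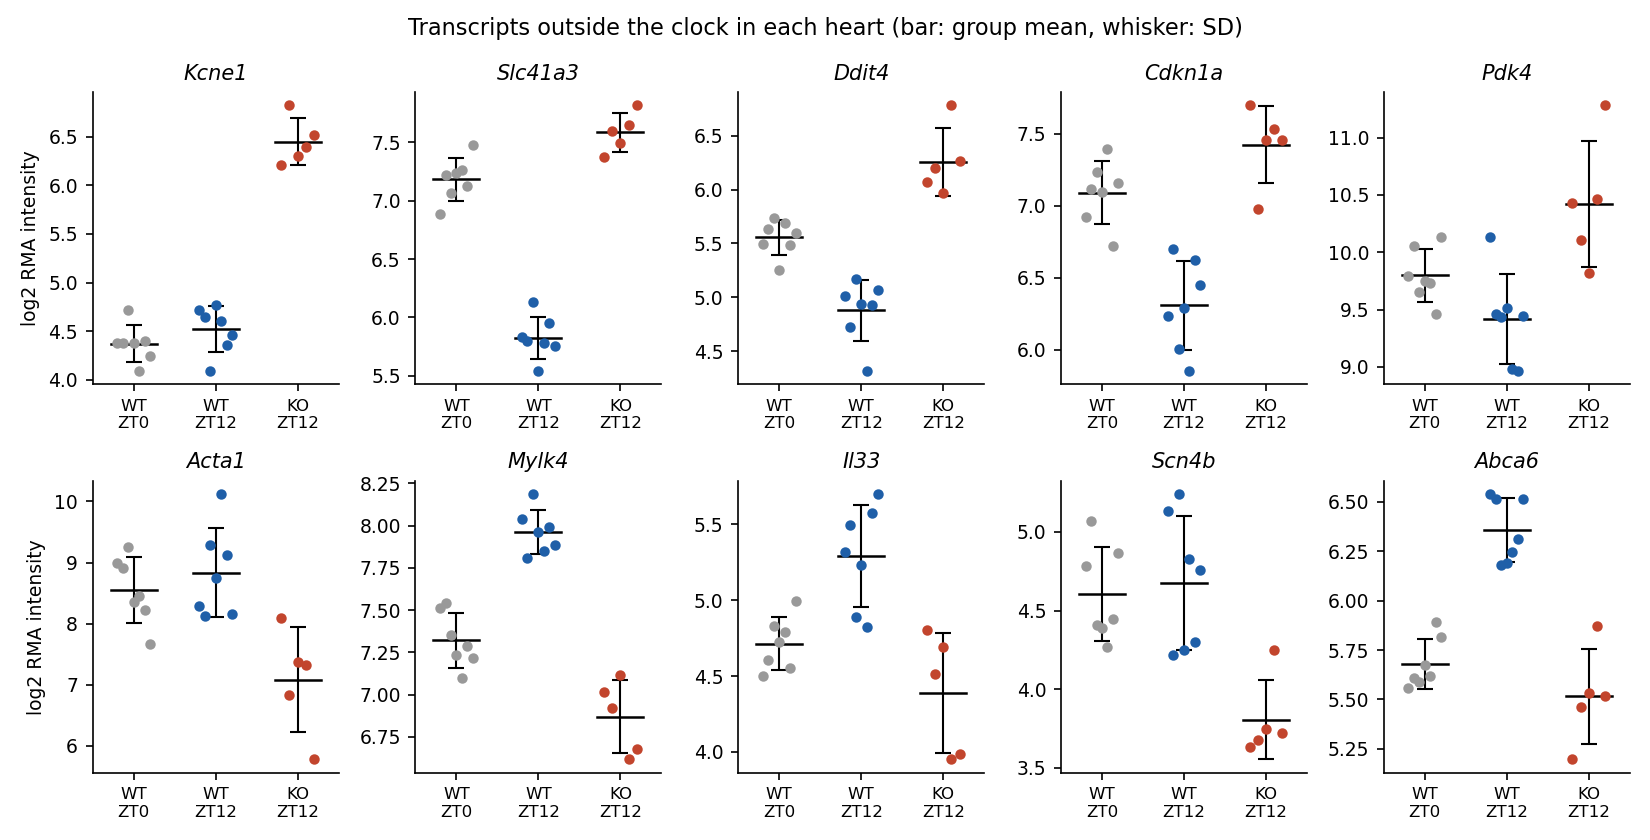
Log2 intensity (y axis) of 10 transcripts outside the clock in each heart, by group, with the group mean (bar) and SD (whisker). The knockout hearts lie above both wild-type groups in Kcne1 and Ddit4, and in Slc41a3 and Cdkn1a they lie above all wild-type hearts at ZT12.

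Genes of muscle structure were read next. Mylk4, a myosin light chain kinase gene, was at 7.02, 6.92, 7.11, 6.62 and 6.68 in the knockout hearts against 7.81 to 8.19 (median 7.96) and fell 2.13-fold without overlap (log2 change -1.09 with SE 0.10, adjusted p = 1.46e-06). The ZT0 mean was 7.32, between both ZT12 groups. It was the 1 gene called among 21 sarcomere and Z-disc genes (4.76%, beside 0.730% of all genes). Their median was 0.032, with Tcap, the titin cap gene, at 0.28 (adjusted p = 0.179). Acta1, which encodes skeletal alpha-actin and is high in the fetal heart, was at 8.10, 6.82, 7.37, 7.33 and 5.78 against 8.12 to 10.12 (median 8.74) and fell 3.38-fold (log2 change -1.76 with SE 0.36, adjusted p = 0.0242). Knockout heart 5 was lowest and wild-type heart 5 highest, and both were low in atrial markers. The difference in Acta1 was -0.89 without the 4 low hearts and -1.81 with the atrial covariate, where it still passed (adjusted p = 0.0420). Its call was lost without knockout heart 2 or 5 (adjusted p of 0.0633 to 0.0757), or with only the ZT12 arrays (0.0808).

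Genes of ankyrin repeat proteins bound to titin moved in opposite directions. Ankrd23 rose 1.60-fold, at 10.33 to 10.53 in the knockout hearts against 9.50 to 10.07 (log2 change 0.68 with SE 0.094, adjusted p = 0.000581), and Ankrd1 fell 1.36-fold, at 11.18 to 11.58 in the knockout hearts against 11.57 to 12.15 (log2 change -0.45 with SE 0.10, adjusted p = 0.0302). Rcan1, which encodes an inhibitor of calcineurin, was at 8.64, 8.26, 7.96, 8.12 and 8.28 against 7.21 to 8.11 (median 7.62) (log2 change 0.65 with SE 0.14, adjusted p = 0.0302). Of 15 fetal and stress genes, 2 rose and 2 fell, with 11 not passing (26.7% called, beside 0.730% of all genes), the others passing being Acta1 and Ankrd23. Myh7, the fetal myosin heavy chain gene, was at 0.96 (adjusted p = 0.345). The call for Ankrd1 was lost on leaving out any single ZT12 heart except wild-type hearts 1, 2 and 7 and knockout hearts 1 and 2 (adjusted p of 0.0512 to 0.104), or with only the ZT12 arrays (0.0914). For Rcan1 it was lost without wild-type heart 1, 3 or 5 or knockout heart 1, 2 or 5 (adjusted p of 0.0561 to 0.0746), or with only the ZT12 arrays (0.0853). Casq1, the calsequestrin gene of fast skeletal muscle, fell as well (log2 change -0.66 with SE 0.15, adjusted p = 0.0465), a call that was lost on leaving out any single ZT12 heart except wild-type hearts 1 and 5 and knockout heart 1 (adjusted p of 0.0617 to 0.142), or with only the ZT12 arrays, after centring, with the atrial covariate or with the Bmp10 covariate (0.0559 to 0.141). Of 12 skeletal muscle markers, 0 rose and 1, Acta1 again, fell, with 11 not passing (8.33% called, beside 0.730% of all genes). Their mean was 3.66 to 3.97 in the wild type and 3.41 to 3.74 in the knockout.

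Metabolic lists were counted in the same way. Plin5, which encodes the lipid droplet protein that links droplets to mitochondria, was at 7.55, 8.01, 7.79, 7.82 and 7.91 in the knockout hearts against 6.81 to 7.47 (median 7.23) and rose 1.55-fold (log2 change 0.63 with SE 0.11, adjusted p = 0.00808). It was the 1 gene called among 32 genes of fatty acid uptake and oxidation (3.125%, beside 0.730% of all genes). Of these 27 had positive differences, and the median was 0.086. Angptl4, an inhibitor of lipoprotein lipase, was at 0.66 (adjusted p = 0.201) and the uncoupling protein gene Ucp3 at 0.60 (adjusted p = 0.245). Plin4, a droplet protein gene placed in the adipocyte list, rose 1.37-fold, at 7.34 to 7.61 in the knockout hearts against 6.92 to 7.35 (log2 change 0.46 with SE 0.094, adjusted p = 0.0223), a call that was lost without knockout heart 2, 4 or 5 (adjusted p of 0.0541 to 0.0626). The mean of 11 adipocyte markers ran from 4.73 to 6.35 in the wild type and from 4.82 to 6.55 in the knockout. Plin4 was the 1 member called (9.09%, beside 0.730% of all genes). In the lists of glycolysis (24 genes, Pfkl nearest at 0.34, adjusted p = 0.0517, then Pdp1 at -0.23) and oxidative phosphorylation (26 genes, Cox6a2 at 0.41 and Atp5c1 at 0.13) 0 genes passed. That count was also 0 for sterol and fatty acid synthesis (23 genes, Dgat2 at -0.26, Srebf2 at -0.17), autophagy (24 genes, Lamp1 at 0.25, Pink1 at 0.18) and the unfolded protein response (23 genes, Herpud1 at 0.20, Edem1 at -0.22) in the limma test. At an unadjusted p under 0.05 there were 6, 3, 1, 3 and 2 genes in those 5 lists, beside 2342 of all 22180 genes. Their medians were -0.030, 0.012, -0.012, 0.044 and -0.058 in that order.

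Glutathione transferase genes of the mu class were counted as a family only after the values had been seen. Of 6 measured, 2 rose and 4 did not pass (33.3% called, beside 0.730% of all genes). Gstm7 was at 7.16, 7.49, 6.87, 7.10 and 7.20 in the knockout hearts against 6.20 to 6.62 (median 6.46) (log2 change 0.75 with SE 0.10, adjusted p = 0.000201), and Gstm2 at 6.95 to 7.32 against 6.30 to 6.70 (log2 change 0.64 with SE 0.085, adjusted p = 0.000316), both without overlap. Members of this family are similar in sequence, so which of them the probes read is uncertain. Gstm2 was the 1 gene called among 24 antioxidant and metal-binding genes (4.17%, beside 0.730% of all genes), with Mt2, a metallothionein gene, at -0.19.

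Of 31 measured matrix genes, 2 rose and 0 fell, with 29 not passing (6.45% called, beside 0.730% of all genes). Mmp3, the gene of the metalloprotease stromelysin 1, was at 3.91, 4.17, 4.80, 4.37 and 3.97 against 2.94 to 3.63 (median 3.37) (log2 change 0.88 with SE 0.17, adjusted p = 0.0122), and Adam19, which encodes a membrane-bound protease, rose 1.65-fold, at 5.16 to 5.97 in the knockout hearts against 4.64 to 5.11 (log2 change 0.72 with SE 0.13, adjusted p = 0.00610). They were the 2 risers. Outside that list, Agt, the gene of angiotensinogen, was at 5.17, 4.79, 4.90, 5.08 and 4.64 against 4.08 to 4.41 (median 4.20), a 1.62-fold rise (log2 change 0.70 with SE 0.10, adjusted p = 0.00129). Crispld2, which encodes a secreted protein that binds lipopolysaccharide, rose 1.56-fold, at 7.34 to 7.59 in the knockout hearts against 6.69 to 6.95 (log2 change 0.64 with SE 0.069, adjusted p = 1.96e-05). Both were separated between the genotypes in every heart. Fap, the gene of fibroblast activation protein, a serine protease, was at 4.14, 3.87, 4.25, 4.39 and 4.26 against 4.73 to 5.08 (median 4.81) and fell 1.62-fold (log2 change -0.69 with SE 0.10, adjusted p = 0.00129). Cpxm2, a carboxypeptidase-like gene, fell 1.60-fold (log2 change -0.68 with SE 0.12, adjusted p = 0.00632), but a dimmer probe set was at 0.027, and the call was lost with a gene's probe sets averaged (0.127). Of 12 fibroblast markers 0 rose and 0 fell, with 12 not passing (1 at an unadjusted p under 0.05, Postn at -0.40, Col1a1 at 0.27), and their mean was 7.04 to 7.48 in the wild type and 6.71 to 7.58 in the knockout.

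Il33, which encodes an alarmin cytokine kept in the nuclei of stromal cells, was at 4.80, 4.51, 4.69, 3.95 and 3.99 in the knockout hearts and 4.83 to 5.70 (median 5.32) in the wild type, a 1.87-fold fall (log2 change -0.90 with SE 0.16, adjusted p = 0.00788). The call was lost with only the ZT12 arrays (0.0583). Alox5, the gene of 5-lipoxygenase, which starts leukotriene synthesis, was at 4.68, 4.77, 4.57, 4.62 and 4.83 against 5.05 to 5.49 (median 5.38) (log2 change -0.63 with SE 0.081, adjusted p = 0.000201), although a dimmer probe set was at -0.0068 and the mean of both at -0.32. Ch25h, which makes 25-hydroxycholesterol, was at 5.72, 4.84, 4.36, 4.36 and 4.72 against 5.19 to 6.94 (median 5.81) (log2 change -1.10 with SE 0.25, adjusted p = 0.0442), with a dimmer probe set at 0.21. That call was lost on leaving out any single ZT12 heart except wild-type hearts 3 and 5 and knockout heart 1 (adjusted p of 0.0586 to 0.131), or with only the ZT12 arrays, with a trended robust prior, with a gene's probe sets averaged or with the atrial covariate (0.0628 to 0.220). Slamf7, a leukocyte receptor gene, was at -0.92 (1.89-fold lower, adjusted p = 0.0144). This call was lost without knockout heart 4 (adjusted p of 0.0510), or with only the ZT12 arrays (0.0808). Pf4, a chemokine gene of platelets, fell 1.64-fold (log2 change -0.71 with SE 0.14, adjusted p = 0.0179). This call was lost with only the ZT12 arrays or with the atrial covariate (0.0556 to 0.0900). Lcn2, which encodes the iron-binding protein lipocalin 2, rose instead, at 5.31, 5.79, 5.29, 4.56 and 4.70 in the knockout hearts against 3.84 to 4.62 (median 4.36) (log2 change 0.89 with SE 0.18, adjusted p = 0.0179), a call that was lost without knockout heart 2 or 3 (adjusted p of 0.0506 to 0.0526), or with only the ZT12 arrays (0.0807).

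Immune lists were counted as well. Of 34 cytokines and regulators, 0 rose and 1 fell, with 33 not passing (2.94% called, beside 0.730% of all genes). Il33 was the gene that fell, and 26 of the 34 had negative differences (median -0.18). Of 22 interferon and antigen presentation genes 0 rose and 0 fell, with 22 not passing (2 at an unadjusted p under 0.05), with H2-Ab1 at -0.53 and Gbp3 at -0.36. Macrophage markers gave 11 of 12 negative differences and 0 calls by limma, with 2 at an unadjusted p under 0.05 (Itgam at -0.31, Cd68 at -0.27). Their mean ran from 5.68 to 6.18 in the wild type and from 5.13 to 5.98 in the knockout, and its part in the changes of immune genes was not tested. Neutrophil markers had a mean of 2.50 to 2.74 and 2.54 to 2.83, with Lcn2 the 1 of 11 called (9.09%, beside the same 0.730%).

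Nr4a3, an orphan nuclear receptor gene induced within minutes of stress, was at 8.21, 7.33, 6.69, 7.74 and 7.84 against 7.89 to 8.81 (median 8.55), with knockout heart 1 inside the wild-type range (log2 change -0.87 with SE 0.20, adjusted p = 0.0442). It was the 1 of 29 immediate early genes that passed (3.45%, beside 0.730% of all genes). Of the 29 genes 21 had negative differences (median -0.19), with Fos at 0.16. Apold1, an early gene of endothelial cells outside that list, fell too (log2 change -0.66 with SE 0.14, adjusted p = 0.0311). The calls were lost on leaving out any single ZT12 heart except wild-type hearts 1 and 5 and knockout heart 1 (adjusted p of 0.0585 to 0.117), or with only the ZT12 arrays, after centring, with a trended robust prior, with the atrial covariate or with the Bmp10 covariate (0.0512 to 0.146) for Nr4a3, and on leaving out any single ZT12 heart except wild-type hearts 1, 2, 5 and 7 and knockout heart 1 (adjusted p of 0.0509 to 0.0931), or with only the ZT12 arrays, with the atrial covariate or with the Bmp10 covariate (0.0627 to 0.142) for Apold1. The mean of Fos, Fosb, Egr1, Egr2, Atf3 and Nr4a1 ran from 7.44 to 8.77 in the wild type and from 7.34 to 8.82 in the knockout. Heat shock genes gave 0 calls among 20 (Hspa1b at -0.57, Bag3 at 0.25), as did 19 amino acid stress genes (Atf4 at -0.42, adjusted p = 0.0630, Asns at -0.29) and 24 genes of replication and mitosis (Ccnd1 at -0.37, adjusted p = 0.0767, Ccnb2 at -0.27) in the limma test. At an unadjusted p under 0.05 there were 3, 4 and 6.

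Genes of cyclic nucleotide and G protein signalling were also called. Pde3a, which encodes the cyclic AMP phosphodiesterase of cardiac muscle that milrinone inhibits, was at 7.67, 7.69, 7.33, 7.68 and 7.74 against 6.73 to 7.09 (median 6.999) and rose 1.61-fold (log2 change 0.68 with SE 0.076, adjusted p = 3.49e-05). Grk5, a kinase gene whose product desensitises beta-adrenergic receptors, rose 1.40-fold, at 6.50 to 6.98 in the knockout hearts against 5.89 to 6.34 (log2 change 0.49 with SE 0.10, adjusted p = 0.0256). This call was lost without wild-type heart 2 or 4 or knockout heart 3, 4 or 5 (adjusted p of 0.0507 to 0.0817), or with only the ZT12 arrays, with the atrial covariate or with the Bmp10 covariate (0.0521 to 0.0783). Pde3a and Grk5 were the 2 risers among 16 measured genes of adrenergic and muscarinic signalling, of which 0 fell (12.5% called, beside 0.730% of all genes), and 13 had positive differences. Rit1, the gene of a RAS-like GTPase, was at 7.93, 8.30, 7.68, 8.05 and 7.96 against 7.16 to 7.37 (median 7.23) (log2 change 0.74 with SE 0.093, adjusted p = 0.000201). Gnb3, a G protein beta subunit gene, fell 1.70-fold (log2 change -0.77 with SE 0.14, adjusted p = 0.00690), with knockout heart 3 at the edge of the wild-type range, and was at -0.45 without the hearts low in atrial markers and at -0.76 with the atrial covariate (adjusted p = 0.0205). Ptgfr, the prostaglandin F receptor gene, fell 1.61-fold (log2 change -0.68 with SE 0.14, adjusted p = 0.0244). This call was lost without wild-type heart 4 or 7 or knockout heart 2, 4 or 5 (adjusted p of 0.0506 to 0.0809), or with only the ZT12 arrays (0.0758).

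Several of the largest changes were in genes of no list fixed here. Abca6, a lipid transporter gene of the ABC family, was at 5.20, 5.46, 5.53, 5.87 and 5.52 in the knockout hearts against 6.18 to 6.54 (median 6.31) and fell 1.79-fold (log2 change -0.84 with SE 0.10, adjusted p = 0.000105). Its ZT0 mean was 5.68 ± 0.13. Lrat, which esterifies retinol for storage, was at 3.12, 2.53, 2.96, 2.54 and 2.35 against 3.14 to 4.20 (median 3.41) (log2 change -0.87 with SE 0.19, adjusted p = 0.0361). The probe set of Lrat was dim, with all knockout values below the array medians (3.25 to 3.32), and was not tested where dim probe sets were left out. The difference in Lrat was -0.43 without the hearts low in atrial markers and -0.84 with the atrial covariate. Its call was lost on leaving out any single ZT12 heart except wild-type hearts 1, 4 and 6 and knockout hearts 1 and 3 (adjusted p of 0.0560 to 0.114), or with only the ZT12 arrays, with the atrial covariate or with the Bmp10 covariate (0.0627 to 0.0855). Vwa3a rose 1.90-fold (log2 change 0.92 with SE 0.15, adjusted p = 0.00339) and Heatr5b, which encodes a protein of clathrin-coated vesicle traffic, 1.51-fold (log2 change 0.60 with SE 0.076, adjusted p = 0.000201), both without overlap. Heatr5b was at 0.39 without the low hearts and at 0.57 with the atrial covariate (adjusted p = 0.00121), and a second probe set was at 0.65. Vgll3, a TEAD cofactor gene, rose 1.58-fold (log2 change 0.66 with SE 0.14, adjusted p = 0.0311). This call was lost without wild-type heart 2, 3 or 4 or knockout heart 2, 3 or 5 (adjusted p of 0.0585 to 0.0931), or with only the ZT12 arrays or with the Bmp10 covariate (0.0545 to 0.0737). The centrosomal gene Cep112 fell 1.59-fold (log2 change -0.67 with SE 0.10, adjusted p = 0.00200). The olfactory receptor gene Olfr1034 rose (log2 change 0.94, adjusted p = 0.0311), but it has close relatives, so which gene was read is uncertain, and the call was lost on leaving out any single ZT12 heart except wild-type hearts 1, 3, 5 and 6 and knockout heart 1 (adjusted p of 0.0529 to 0.0900), or with the atrial covariate or with the Bmp10 covariate (0.0605 to 0.0984). Samd5 (log2 change -0.59, adjusted p = 0.0361) and the pseudogene Pisd-ps3 (log2 change -0.61, adjusted p = 0.0359), which resembles its parent gene, fell. Their calls were lost on leaving out any single ZT12 heart except wild-type hearts 4 and 5 and knockout hearts 2 and 3 (adjusted p of 0.0561 to 0.114), or with only the ZT12 arrays, with the atrial covariate or with the Bmp10 covariate (0.0583 to 0.109) for Samd5, and on leaving out any single ZT12 heart except wild-type hearts 5 and 6 and knockout hearts 3 and 4 (adjusted p of 0.0501 to 0.0929), or with only the ZT12 arrays, with the atrial covariate or with the Bmp10 covariate (0.0668 to 0.106) for Pisd-ps3.

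Other cell types and the genetic background were read from marker lists. Of 30 nuclear receptor and coregulator genes, 0 rose and 1 fell, with 29 not passing (3.33% called, beside 0.730% of all genes). Thra was the gene that fell, and Rora, the activating counterpart of Rev-erb, was at -0.073 (adjusted p = 0.784). Endothelial (14 genes, Kdr at 0.27, Cdh5 at -0.14), smooth muscle (12, Cnn1 at 0.54, Myh11 at 0.26), lymphocyte (11, Cd3g at -0.30, Nkg7 at -0.24) and erythroid markers (2, Epb42 at -0.056, Slc4a1 at 0.0016) had 0 calls in the limma test (2, 0, 3 and 0 at an unadjusted p under 0.05). 0 calls were also made for lung and thymus (10, Sftpb at 0.25, Rag2 at -0.19) and Schwann cell and neuron markers (9, Snap25 at -0.37, Chga at -0.15), with 0 and 0 unadjusted. Lymphocyte, erythroid, lung and thymus, and Schwann cell and neuron markers were dim. Their wild-type means were 2.88 to 3.15, 2.87 to 3.10, 2.82 to 3.03 and 3.02 to 3.20 in that order. All lay below the array medians (3.25 to 3.32), so 0 calls there say little about those cells. Among cardiomyocyte markers Ryr2 was nearest at 0.21 (adjusted p = 0.106). Lrrn4, a mesothelial gene, was the 1 of 8 markers of the heart's outer lining that passed (log2 change -0.53 with SE 0.12, adjusted p = 0.0359). That is 12.5% called, beside 0.730% of all genes. Its probe set was dim, and the call was not tested where dim probe sets were left out. This call was lost on leaving out any single ZT12 heart except wild-type hearts 3 and 5 and knockout hearts 1 and 3 (adjusted p of 0.0653 to 0.110), or with the atrial covariate or with the Bmp10 covariate (0.0501 to 0.0972). The mesothelial mean was 3.86 to 4.35 in the wild type and 3.71 to 4.40 in the knockout.

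Genes that commonly differ between inbred strains were read because the labels give no strain for the knockout. Of 10 measured, 0 rose and 0 fell, with 10 not passing in the limma test (0% called, beside 0.730% of all genes, and 3 at an unadjusted p under 0.05). At that share a list of 10 would seldom hold a call, so the 0 says little about the background. Differences were negative in 9 and positive in 1. Nnt, the mitochondrial transhydrogenase gene that carries a deletion in C57BL/6J mice, was at 8.70, 8.65, 8.45, 8.67 and 9.03 in the knockout hearts and 8.51 to 8.66 (median 8.65) in the wild type (difference 0.076, interval -0.093 to 0.25). Ide (-0.45), Btaf1 (-0.28) and Fgfbp3 (-0.20), neighbours that share a copy-number variant, did not pass, and neither did H2-Q4 (-0.30), Alad (-0.078), Xaf1 (-0.066), Wdfy1 (-0.035), H2-K1 (-0.017) and Glo1 (-0.016).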

How the data were processed

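The authors deposited RMA values, 1 per probe set, per the submitters' processing notes. The deposited scale was taken as log2 from the values (0.21 to 12.9, array medians 3.25 to 3.32). No RMA version or genome build is given in the sources used here. Of 41345 probe sets, 23521 list 1 gene in the GEO platform annotation, 1814 several and 16010 none. Each of 22180 genes was represented by its probe set with the highest mean. Entrez identifiers of 23328 probe sets matched RefSeq (GRCm38.p6), changing 0 symbols.

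Limma 3.58.1 in R 4.3.3 fitted 1 mean per group over all 19 arrays, so in the main fit ZT0 arrays add to the estimate of spread only. They also count in the mean that chose a gene's probe set. In the covariate and block fits they help to set those terms as well. Tests were two-sided eBayes tests without trend, with Benjamini-Hochberg adjustment over all genes, and a gene was called at adjusted p under 0.05. "Rose" and "fell" mean called, in the knockout relative to wild type at ZT12. Intervals are 95% intervals of the fit, and the median SE was 0.11. The number of arrays limits the precision. Labels call replicates biological. SDs of differences between replicate arrays were 0.37 to 0.47, so none was a copy. The fit was tested on simulated data.

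Named genes were the target, the clock, strain and atrial lists, the 20 largest rises and falls, the 15 smallest p and up to 4 called genes per list (otherwise the 2 with the smallest p), without predicted genes, small RNAs or clone names, and called genes within 25 positions of Nr1d1. Other names were chosen after their values were seen. Members and lists were chosen with earlier results of these data known. Alternatives comprised only the ZT12 arrays, a replicate block, other scaling, filtering, prior and probe set rules, tissue covariates and leaving out each array.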

Additional observations from a re-analysis of the deposited data

Results flagged for a closer look

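Single hearts stood apart from the rest of their group in 24 of 274 sets of values tested by Dixon's gap ratio, a rule that chance meets in about 1 in 20 groups. Wild-type heart 5, low in atrial markers, was the lowest of its group for Sln (5.09, the next heart at 8.48), Nppa (11.23, next 12.24), Tbx5 (5.95, next 6.87), Ptgfr (4.74, next 5.37), Cry2 (5.30, next 5.52) and Pink1 (8.12, next 8.31). Wild-type heart 2 was highest for Bhlhe40 (8.55, next 8.07) and lowest for Ciart (5.24, next 5.75) and Dgat2 (9.25, next 9.36). Wild-type heart 1 was highest for Col1a1 (6.85, next 6.33) and Gbp3 (5.18, next 4.67) and lowest for Nnt (8.51, next 8.60). Wild-type heart 4 was highest for Bhlhe41 (5.81, next 5.68) and Epb42 (2.86, next 2.63), heart 6 for E2f8 (3.48, next 3.21) and heart 7 for Asns (4.71, next 4.52).

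Among the knockout hearts, heart 1 was highest for Bmp10 (9.01, next 4.15) and lowest for Fgfbp3 (4.37, next 4.72). Knockout heart 3 was lowest for the heat shock gene Hspa1b (8.66, next 10.22), Pde3a (7.33, next 7.67) and Plin4 (7.34, next 7.54) and highest for Gnb3 (4.33, next 3.78). Knockout heart 4 was highest for Scn4b (4.25, next 3.75) and heart 5 for Grk5 (6.98, next 6.64).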

How the results depend on the processing

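The count of 162 called genes (98 higher, 64 lower) depended on the fit, while every called gene kept its direction in each fit in which it was tested. Since the fits reuse the same arrays, that kept direction is no separate support. With only the 12 ZT12 arrays 72 were called (51 higher, 21 lower), 70 of them among the 162. Without the 4 arrays low in atrial markers, an alternative chosen after seeing the data, it was 19 (15 higher, 4 lower). With Bmp10 as a covariate, also chosen then, 114 were called (72 higher, 42 lower), 109 of them among the 162. The atrial covariate gave 124 (85 higher, 39 lower), 94 of them among the 162. Leaving out dim probe sets gave 264 (172 higher), and a trended robust prior 270 (177 higher). Leaving out single ZT12 arrays gave 94 to 161 called genes, 56 to 86 higher and 31 to 75 lower, and 62 genes passed in all 12 of these fits. The other settings (a second quantile normalization, centring, averaged probe sets, the adipocyte covariate and, chosen after seeing the data, the early gene covariate) gave 143 to 195 called, and testing all probe sets, named or not, gave 121 (70 higher, 51 lower). With the replicate number as a block 88 were called (58 higher, 30 lower), 81 among the 162. Losses under the block are not listed beside single genes. Same-numbered knockout and wild-type arrays at ZT12 had deviations over all genes correlated at -0.072 to 0.074, and 0 of 5 knockout arrays correlated best with their own number. A pairing seen in few genes could not be detected this way. Why counts differed was not tested. With 5 and 7 arrays, small changes in dim genes are not resolved.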

Other observations

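Families were looked at by symbol after the values had been seen, so their counts are descriptions. ABC transporter genes that passed were all lower in the knockout, 5 of 48 measured (10.4%, beside 0.730% of all genes), while the family median was 0.0084. Besides Abca6 these were the cholesterol exporter gene Abca1 (log2 change -0.45, adjusted p = 0.0244), the drug exporter gene Abcb1a (log2 change -0.55, adjusted p = 0.0128), its phospholipid-exporting relative Abcb4 (log2 change -0.43, adjusted p = 0.0311) and Abcc1, a glutathione conjugate exporter gene (log2 change -0.37, adjusted p = 0.0154). The calls were lost without knockout heart 2 or 5 (adjusted p of 0.0639 to 0.0705), or with only the ZT12 arrays, with the atrial covariate or with the Bmp10 covariate (0.0533 to 0.0818) for Abca1, with only the ZT12 arrays (0.0622) for Abcb1a, on leaving out any single ZT12 heart except wild-type hearts 1, 2, 3 and 4 and knockout heart 1 (adjusted p of 0.0587 to 0.0926), or with only the ZT12 arrays (0.129) for Abcb4, and without knockout heart 3 (adjusted p of 0.0515) for Abcc1.

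Proteases of the ADAM, ADAMTS and MMP families that passed were all higher, 4 of 73 (5.48%, beside 0.730% of all genes), with a family median of -0.032. Beside Mmp3 and Adam19 they were the aggrecanase gene Adamts5, at 6.60, 6.67, 6.95, 6.54 and 6.41 against 5.68 to 6.23 (median 6.01) (log2 change 0.65 with SE 0.12, adjusted p = 0.0128), and Mmp14, which encodes a membrane-bound metalloprotease (log2 change 0.45 with SE 0.10, adjusted p = 0.0449), a call that was lost on leaving out any single ZT12 heart except wild-type hearts 6 and 7 (adjusted p of 0.0617 to 0.125), or with only the ZT12 arrays, after centring or with the adipocyte covariate (0.0569 to 0.0766). Of 24 phosphodiesterase genes 2 rose (8.33%, beside 0.730% of all genes), Pde3a and the cyclic GMP-stimulated Pde2a (log2 change 0.32, adjusted p = 0.0182), a call that was lost without knockout heart 2 (adjusted p of 0.0573), or with only the ZT12 arrays or with the atrial covariate (0.0529 to 0.0694). Of 5 perilipin genes 2 rose (40.0%), Plin5 and Plin4, and of 6 mu-class glutathione transferase genes 2 rose (33.3%), Gstm7 and Gstm2, beside the same 0.730%.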
